A study of Mus musculus with 15 samples.

Results

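The genes described are p53 and its target genes in mouse embryonic stem cells: Trp53, which encodes p53, the genes for its inhibitors and a set of genes whose transcription p53 is known to raise. They are 31 genes of the 37310 in the count table, taken by symbol from a list, with the most abundant row where a symbol occurred more than once (no member had a second row). Trp53 itself is row ENSMUSG00000059552.6, Mdm2 is ENSMUSG00000020184.8, Cdkn1a is ENSMUSG00000023067.7 and Perp is ENSMUSG00000019851.7.

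The p53 protein is a transcription factor that is held at low activity by MDM2, a ubiquitin ligase that marks it for degradation, and by MDM4, which covers its activation domain. DNA damage, oncogene activity and ribosome stress free p53 from them. It then binds paired half-sites in DNA and raises genes that arrest the cell cycle, trigger cell death, repair DNA and, through Mdm2 itself, end the response. Embryonic stem cells have abundant p53 and a short G1 phase, and p53 in these cells is also known for its part in differentiation.

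RNA was sequenced from the J1 line of mouse embryonic stem cells, cultured with serum and LIF, the cytokine that holds them in self-renewal. There were 15 libraries, 3 for each of 5 groups. One experiment held knockouts of Taf5l (Taf5l-KO) and Taf6l (Taf6l-KO) and wild-type J1 cells (WT-Taf). The other held a knockout of Myc (cMyc-KO) and wild-type J1 cells of its own (WT-Myc). TAF5L and TAF6L belong to the SAGA coactivator complex, which acetylates histones at promoters, and MYC is a DNA-binding activator of growth genes. The labels name no further allele or agent, and do not say whether the replicates are separate cultures or clones. The p-values thus set each difference between groups against the spread of libraries within groups, and that spread may be technical only. The 3 cMyc-KO libraries share a code in their descriptions whose meaning is not given, so whether they stem from 1 clone was not tested. In bulk RNA, fewer cells with a transcript and less of it per cell cannot be told apart.

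Total counts per library were 14935631 to 27650813. The targeted genes kept part of their counts: Taf5l was at 41.7 to 43.0 CPM (counts scaled to the library's total after TMM adjustment) in Taf5l-KO against 84.5 to 88.1 in WT-Taf, Taf6l was at 6.06 to 7.17 in Taf6l-KO against 25.2 to 26.8, and Myc was at 28 to 31 in cMyc-KO against 64.7 to 68.8 in WT-Myc. Myc was also lower in the Taf knockouts, by a log2 fold change of -0.69 in Taf5l-KO and -0.83 in Taf6l-KO. All 9 pluripotency markers were above 1 CPM in every group, with a sum of 4490 to 7262 CPM per library, while 10 feeder fibroblast markers, 3 to 6 of them at 0 throughout a group, summed to 7.84 to 13.3 CPM. Protein-coding genes held 75.8% to 81.7% of counts in the libraries of the Taf experiment and 93.8% to 94.3% in those of the Myc experiment. The cMyc-KO replicate 3 stood apart from the others of its group, with a chi-square over degrees of freedom of 36.4 and 26.3 against them, where the other pair had 5.07.

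Each knockout was tested against the wild type of its own experiment with edgeR's quasi-likelihood test, and a gene was called where its Benjamini-Hochberg adjusted p was under 0.05. Fold changes below are log2 values of the knockout over its wild type, with the standard error (SE) from the fit. In Taf6l-KO, 19 of 29 tested members rose and 4 fell, against 19.1% and 18.2% of all 15743 genes tested. In Taf5l-KO, 12 of 29 rose and 7 fell, against 17.4% and 15.9% of all genes. In cMyc-KO the direction was the other one: 22 of 30 tested members fell and 1 rose, where 19.5% of all 14563 genes fell and 15.2% rose. The median member changed by 0.25 in Taf6l-KO (all genes 0.02), by 0.09 in Taf5l-KO (all genes 0.00) and by -0.48 in cMyc-KO (all genes -0.00). Counting calls in either direction, 33.2% of all genes were called in Taf5l-KO, 37.2% in Taf6l-KO and 34.8% in cMyc-KO. The comparisons of Taf5l-KO and Taf6l-KO share the WT-Taf libraries, so their calls are given side by side. Scaling by library totals in place of TMM factors raised the share of Taf6l-KO calls that are higher, over all genes, from 51.2% to 69.0%, and then 21 members rose and 3 fell.

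The same was counted by library ranges, without a test. In Taf5l-KO, 14 of 29 members had all 3 knockout libraries above all 3 wild-type libraries and 7 had them all below, where 22.7% and 22% of all genes did (44.7% in either direction). Taf6l-KO had 20 members wholly above and 4 wholly below, against 25.4% and 23.5% of all genes (49% in either direction). For cMyc-KO the counts were 2 above and 24 of 30 below, against 22.9% and 26.7% (49.6% in either direction).

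**Figure D1:**
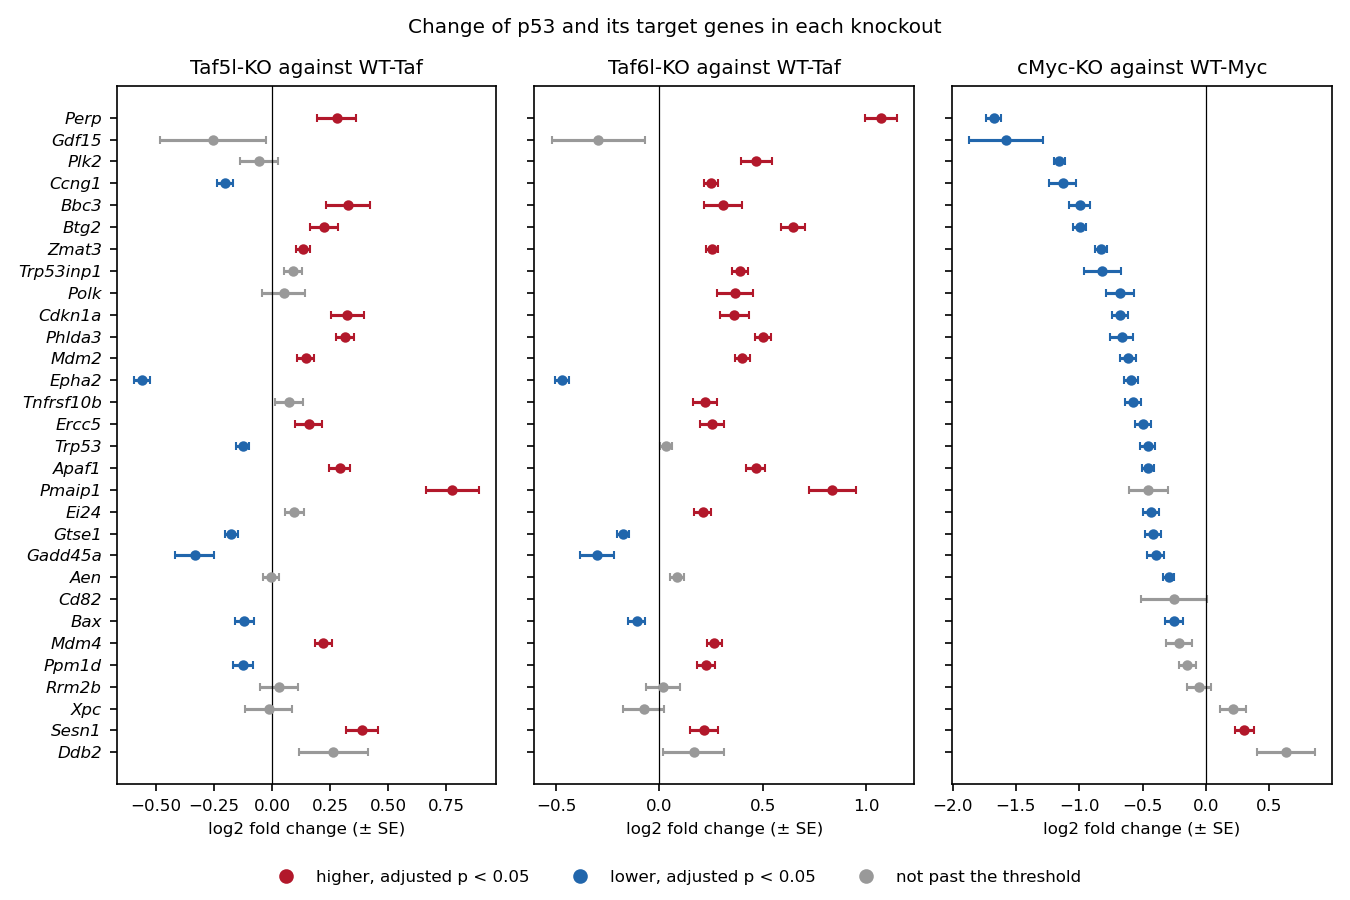
Log2 fold change of each p53 pathway gene in the 3 knockouts, each against its own wild type, with bars of 1 standard error; red points are called higher and blue points lower at an adjusted p under 0.05, and grey points are not called. Fas, and Cd82 in the Taf experiment, were too low to test. The horizontal scales differ between the panels. Perp stands highest in Taf6l-KO (1.07) and lowest in cMyc-KO (-1.68).

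Trp53 and its inhibitors are taken first. Trp53 was at 377, 371 and 382 CPM in WT-Taf, at 342, 345 and 347 in Taf5l-KO and at 379, 393 and 381 in Taf6l-KO. The Taf5l-KO libraries all lay below the wild type, and those of Taf6l-KO overlapped it. The log2 fold change was -0.13 (SE 0.0288, adjusted p = 0.00362) in Taf5l-KO and 0.03 (SE 0.0287, adjusted p = 0.449) in Taf6l-KO. In the Myc experiment Trp53 was at 644, 674 and 680 CPM in WT-Myc and at 517, 484 and 451 in cMyc-KO, with no overlap, a change of -0.46 (SE 0.0575, adjusted p = 0.000769). The Taf5l-KO call was lost when all 15 libraries shared a fit (adjusted p = 0.0531). Trp53 overlaps an antisense gene, Wrap53, and the sources used here do not say whether counting used strand. A processed pseudogene, Trp53-ps, has a row of its own with 0 counts in every library.

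Mdm2, the ubiquitin ligase that is both inhibitor and target of p53, was at 76.8, 79.5 and 82.4 CPM in WT-Taf, 86.7, 89.1 and 87.6 in Taf5l-KO and 103, 106 and 106 in Taf6l-KO. The groups did not overlap, and Taf6l-KO was highest. The rise was 0.14 (SE 0.0355, adjusted p = 0.00617) in Taf5l-KO and 0.40 (SE 0.0348, adjusted p = 6.15e-07) in Taf6l-KO. In WT-Myc it was at 217, 216 and 209 CPM, and cMyc-KO at 133, 135 and 151 lay wholly below, a change of -0.61 (SE 0.0595, adjusted p = 0.000231). Mdm4 rose by 0.22 and 0.27 in Taf5l-KO and Taf6l-KO and did not pass the test in cMyc-KO (-0.21, adjusted p = 0.16), where the library ranges overlapped. Ppm1d, a phosphatase that switches off p53 and the kinases above it, was at 30.0, 30.9 and 30.3 CPM in WT-Taf. It was lower in Taf5l-KO (27.1, 27.7 and 28.8 CPM, -0.13, adjusted p = 0.0447) and higher in Taf6l-KO (35.7, 35.3 and 35.7 CPM, 0.23, adjusted p = 0.000808).

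The cell cycle members came next. Cdkn1a encodes p21, the inhibitor of cyclin-dependent kinases that carries most of the p53 arrest. It was at 12.8, 14.9 and 14.9 CPM in WT-Taf, 17.4, 18.3 and 17.5 in Taf5l-KO and 19.2, 18.0 and 17.5 in Taf6l-KO. Both knockouts lay wholly above the wild type, by 0.32 (SE 0.0731, adjusted p = 0.00345) and 0.36 (SE 0.0718, adjusted p = 0.00115). WT-Myc held 50.3, 49.0 and 54.2 CPM and cMyc-KO held 33.1, 30.6 and 32.3, a change of -0.68 (SE 0.0617, adjusted p = 0.000173). CPM are scaled within each experiment, so they are compared only inside it.

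Promoter windows of 300 bases, from 250 before to 50 after an annotated start, were searched for the p53 response element. It was defined as a pair of 10-base half-sites, the p53 consensus, with up to 13 bases between them and the central C and G of each half-site kept. The element is its own reverse complement, so both strands were read. The windows come from RefSeq (GRCm38.p6), not from mm9, the build named for the count table. At most 1 mismatch was found in 3 of the 23 members with a window (13%), namely Cdkn1a, Ccng1 and Gtse1, and in 0.718% of all 27025 genes. At most 2 mismatches were found in 6 members (26.1%), which adds Bax, Gadd45a and Sesn1, and in 4.71% of all genes. The other 8 members had no window. The sequences upstream of Cdkn1a and Ccng1 are shown because they hold the closest upstream matches, with the half-sites in capitals and each read 5′ to 3′ along the gene's strand.
Cdkn1a, chr17:29090729-29090978, plus strand: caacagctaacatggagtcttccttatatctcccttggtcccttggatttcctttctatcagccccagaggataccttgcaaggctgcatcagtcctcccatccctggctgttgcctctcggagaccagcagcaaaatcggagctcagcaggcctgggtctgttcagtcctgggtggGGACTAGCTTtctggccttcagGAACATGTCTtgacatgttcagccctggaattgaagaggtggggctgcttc
Ccng1, chr11:40755287-40755536, minus strand: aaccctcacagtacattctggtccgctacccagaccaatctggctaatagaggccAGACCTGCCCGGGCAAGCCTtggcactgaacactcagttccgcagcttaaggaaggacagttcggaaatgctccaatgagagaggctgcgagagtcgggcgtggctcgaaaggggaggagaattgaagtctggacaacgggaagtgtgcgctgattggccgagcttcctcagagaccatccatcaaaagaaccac
The Cdkn1a element matched at all 20 letters, has 12 bases between its half-sites and lies at -73 to -42 from a start that is 2790 bases upstream of the other annotated start. Only the pair with the fewest mismatches is in capitals. In Cdkn1a the 10 bases right after the downstream half-site, left in lower case, also match a half-site with 1 mismatch. Those bases and the half-site before them make a pair with no spacer. The Ccng1 element has 1 mismatch, no spacer and lies at -195 to -176. A match is a description of letters and no binding was measured.
All other matches with at most 2 mismatches are given as the element alone. Of their genes, Gtse1, Bax and Gadd45a fell in cMyc-KO, as did 22 of 30 tested members, and Sesn1 was the one member that rose there. Gtse1 has 1 mismatch and the others have 2, and Bax and Gadd45a lie on the minus strand.
Gtse1, chr15:85859945-85859964, at -1 to 19: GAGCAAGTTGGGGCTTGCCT
Bax, chr7:45467079-45467099, at -201 to -181: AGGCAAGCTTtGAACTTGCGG
Gadd45a, chr6:67037438-67037463, at -56 to -31: GGACCTGGTTggctgaGGGCTAGCCC
Sesn1, chr10:41887253-41887275, at -186 to -164: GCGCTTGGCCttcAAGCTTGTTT
The 6 genes with an element went in different directions in the Taf knockouts, as the values of each show. Cdkn1a and Sesn1 rose in both, Bax, Gtse1 and Gadd45a fell in both, and Ccng1 fell in Taf5l-KO and rose in Taf6l-KO.

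Ccng1 encodes cyclin G1, which recruits a phosphatase to MDM2. It was at 168, 168 and 166 CPM in WT-Taf, 138, 146 and 152 in Taf5l-KO and 198, 199 and 200 in Taf6l-KO, so that the knockouts lay on either side of the wild type. The change was -0.20 (SE 0.0347, adjusted p = 0.000477) in Taf5l-KO and 0.25 (SE 0.0341, adjusted p = 5.02e-05) in Taf6l-KO. Its cMyc-KO libraries were at 220, 225 and 284 CPM against 567, 547 and 484 in WT-Myc, a change of -1.13 (SE 0.106, adjusted p = 0.000201). Replicate 3 of cMyc-KO was the highest of its group and replicate 3 of WT-Myc the lowest of its own. Ccng1, Ppm1d and Trp53 lie on chromosome 11, of whose 1300 tested genes 508 were higher and 84 lower in Taf6l-KO (median 0.16). In Taf5l-KO 154 of the 1300 were higher and 273 lower (median -0.06). The part of these shifts in the values of Ccng1, Ppm1d and Trp53 was not tested. Without these 3 genes 17 of 26 members rose and 4 fell in Taf6l-KO, and 12 rose and 4 fell in Taf5l-KO.

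Btg2, an antiproliferative partner of the mRNA deadenylase, and Plk2, a stress-induced polo-like kinase, had large changes. Btg2 was at 18.4, 19.6 and 19.5 CPM in WT-Taf, 22.2, 21.4 and 23.5 in Taf5l-KO and 29.7, 31.7 and 28.8 in Taf6l-KO. No library of the knockouts reached down to the wild type, and the rise was 0.22 (SE 0.0611, adjusted p = 0.0114) and 0.65 (SE 0.0581, adjusted p = 8.68e-07). In WT-Myc it stood at 88.6, 87.1 and 87.0 CPM and in cMyc-KO at 45.4, 43.8 and 42.5, a change of -1.0 (SE 0.0512, adjusted p = 2.1e-05). Plk2 was at 14.3, 14.9 and 15.4 CPM in WT-Taf, 15.3, 14.5 and 13 in Taf5l-KO and 19.1, 22.3 and 20.3 in Taf6l-KO. The Taf5l-KO libraries overlapped the wild type, and Taf6l-KO lay above it, by 0.47 (SE 0.076, adjusted p = 0.000228). Plk2 was at 112, 112 and 114 CPM in WT-Myc and at 50.4, 50.7 and 50.7 in cMyc-KO, a change of -1.16 (SE 0.0467, adjusted p = 8.36e-06).

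Gtse1, a mitotic protein that holds p53 back, and Gadd45a, a damage-induced inhibitor of the G2 to M transition, fell in all 3 knockouts. Gtse1 changed by -0.17, -0.18 and -0.42 in Taf5l-KO, Taf6l-KO and cMyc-KO. Gadd45a was at 18.9, 19.9 and 20.5 CPM in WT-Taf, 13.4, 17.6 and 15.8 in Taf5l-KO and 15.3, 16.4 and 16.4 in Taf6l-KO, with every knockout library below the wild type. Its changes were -0.33 (adjusted p = 0.00679), -0.30 (adjusted p = 0.0099) and, in cMyc-KO, -0.40 (adjusted p = 0.00277). Of the 6 cell cycle members, 2 thus rose and 3 fell in Taf5l-KO, 4 rose and 2 fell in Taf6l-KO, and 6 fell in cMyc-KO (median -0.84). Of all genes, 17.4% rose and 15.9% fell in Taf5l-KO, 19.1% and 18.2% in Taf6l-KO, and 19.5% fell in cMyc-KO.

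**Figure D2:**
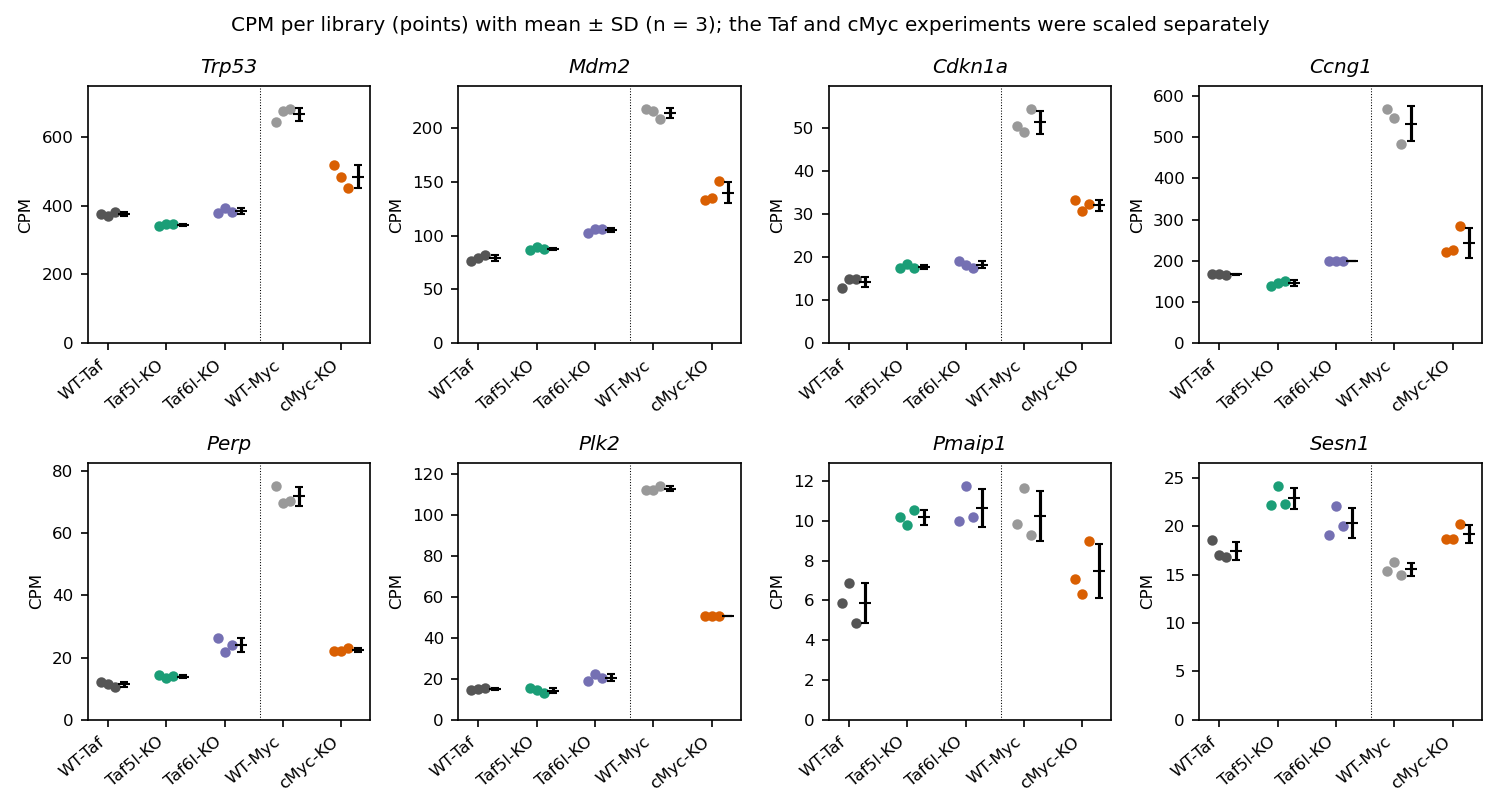
CPM of single p53 pathway genes in each of the 15 libraries by group, on axes that start at 0, with a point per library and a bar for the mean and SD of the 3 libraries. Perp sits at 21.9 to 26.2 in Taf6l-KO, above its wild type at 10.6 to 12.1, and at 22.0 to 23.2 in cMyc-KO, below its wild type at 69.7 to 75.1; the experiments were scaled separately.

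Among the cell death members, 8 of 10 tested rose and 1 fell in Taf6l-KO, 5 rose and 1 fell in Taf5l-KO, and 9 fell in cMyc-KO with none rising. The shares of all genes that rose and fell were 19.1% and 18.2%, 17.4% and 15.9%, and 15.2% and 19.5%, in that order. Perp, a desmosome-linked membrane protein of p53-driven apoptosis, had the largest member change in Taf6l-KO and in cMyc-KO. It was at 12.1, 11.4 and 10.6 CPM in WT-Taf, 14.2, 13.4 and 14 in Taf5l-KO and 26.2, 21.9 and 23.9 in Taf6l-KO, so the order of the groups had no overlap. The rise was 0.28 (SE 0.0839, adjusted p = 0.0197) in Taf5l-KO and 1.07 (SE 0.077, adjusted p = 9.87e-08) in Taf6l-KO, 2.10-fold. In WT-Myc it was at 75.1, 69.7 and 70.4 CPM and in cMyc-KO at 22.1, 22.0 and 23.2, a change of -1.68 (SE 0.0572, adjusted p = 5.28e-06).

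Pmaip1 (NOXA) and Bbc3 (PUMA) are BH3-only proteins that free the pore formers of the mitochondrial membrane. Pmaip1 was at 5.88, 6.86 and 4.87 CPM in WT-Taf, 10.2, 9.79 and 10.5 in Taf5l-KO and 10.002, 11.7 and 10.2 in Taf6l-KO. Both knockouts lay wholly above, by 0.78 (SE 0.115, adjusted p = 0.000132) and 0.84 (SE 0.113, adjusted p = 4.93e-05). No other member rose as much in Taf5l-KO. The cMyc-KO libraries held it at 7.07, 6.33 and 8.98 CPM against 9.83, 11.6 and 9.26 in WT-Myc. They lay wholly below, yet Pmaip1 missed the threshold (-0.45, SE 0.151, adjusted p = 0.0507). Bbc3 rose by 0.33 and 0.31 in Taf5l-KO and Taf6l-KO. In cMyc-KO it was at 13.1, 13.2 and 12.2 CPM against 23.5, 27.9 and 25.4, a change of -1.0 (SE 0.0836, adjusted p = 0.000122).

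Bax, the pore former itself, went the other way in the Taf experiment. It was at 100.2, 99.7 and 99 CPM in WT-Taf, 97.7, 89.5 and 88.3 in Taf5l-KO and 91.9, 95.5 and 89.7 in Taf6l-KO, a change of -0.12 (adjusted p = 0.0362) and -0.11 (adjusted p = 0.0451). Its cMyc-KO libraries were at 162, 161 and 138 CPM against 179, 177 and 192, which is -0.25 (adjusted p = 0.0306). None of these knockout libraries overlapped its wild type. Apaf1, the scaffold of the apoptosome, rose by 0.29 in Taf5l-KO and 0.47 in Taf6l-KO and fell by 0.46 on the log2 scale in cMyc-KO. Phlda3, an inhibitor of AKT, was at 39.5, 39.4 and 38.3 CPM in WT-Taf, 48.9, 48.7 and 48.3 in Taf5l-KO and 54.4, 57.8 and 54.3 in Taf6l-KO. The groups stood in 3 separate steps, with rises of 0.31 (adjusted p = 3.87e-05) and 0.50 (adjusted p = 2.44e-07), and in cMyc-KO Phlda3 fell by 0.66 on the log2 scale (adjusted p = 0.00117).

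Of the other cell death members, Trp53inp1, an autophagy and apoptosis adaptor, rose in Taf6l-KO (0.39, adjusted p = 1.61e-06) and was at 0.09 in Taf5l-KO (adjusted p = 0.0852). The cMyc-KO libraries held it at 142, 158 and 210 CPM against 325, 311 and 265, a change of -0.82 (SE 0.144, adjusted p = 0.0038), and replicate 3 was again the closest to wild type. Tnfrsf10b, the death receptor for TRAIL, and Ei24, an endoplasmic reticulum protein, rose by 0.22 and 0.21 in Taf6l-KO, did not pass in Taf5l-KO, and fell by 0.58 and 0.43 on the log2 scale in cMyc-KO. Tnfrsf10b is on chromosome 14, where 237 of 483 tested genes were lower in cMyc-KO (median -0.32), and the part of that shift in its value was not tested. Without Tnfrsf10b, 21 of 29 members fell. Aen, an apoptosis-enhancing nuclease, passed the test in cMyc-KO alone among the knockouts (-0.29, adjusted p = 0.0017). Fas, a death receptor, had 0 to 4 counts per library and was not tested.

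Of the 5 DNA repair members, 1 rose in Taf5l-KO, 2 rose in Taf6l-KO and 2 fell in cMyc-KO. Of all genes, 17.4% rose in Taf5l-KO, 19.1% rose in Taf6l-KO and 19.5% fell in cMyc-KO, and 5 members are too few to set against these shares. Ercc5, the nuclease that cuts 3′ of a lesion in nucleotide excision repair, was at 25.0, 25.3 and 23.1 CPM in WT-Taf, 29.6, 26.5 and 26.2 in Taf5l-KO and 29.2, 29.6 and 29.1 in Taf6l-KO. It rose by 0.16 (adjusted p = 0.0496) and 0.25 (adjusted p = 0.00279), and fell by 0.50 on the log2 scale in cMyc-KO (adjusted p = 0.000638). Polk, a translesion polymerase, rose by 0.37 in Taf6l-KO (adjusted p = 0.00467), stood at 0.05 in Taf5l-KO (adjusted p = 0.721) and fell by 0.68 on the log2 scale in cMyc-KO (adjusted p = 0.00277). The damage sensors Xpc and Ddb2 and the ribonucleotide reductase subunit Rrm2b did not pass the test in any knockout, with log2 fold changes from -0.08 to 0.63. Ddb2 had the widest error of them in cMyc-KO (0.63, SE 0.228, adjusted p = 0.0659).

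Among the members of stress, RNA and cell surface functions, Sesn1 was the one member that rose in all 3 knockouts. Sesn1 is a sestrin, which lowers mTORC1 activity when amino acids or oxidants signal stress. It was at 18.5, 17.1 and 16.8 CPM in WT-Taf, 22.1, 24.2 and 22.3 in Taf5l-KO, 19.1, 22.1 and 19.98 in Taf6l-KO, 15.4, 16.3 and 15.0 in WT-Myc and 18.6, 18.7 and 20.2 in cMyc-KO. Each knockout lay wholly above its wild type, by 0.39 (adjusted p = 0.000626), 0.22 (adjusted p = 0.0245) and 0.30 (adjusted p = 0.0143). Epha2, an ephrin receptor kinase, fell in all 3. It was at 157, 161 and 166 CPM in WT-Taf, 113, 106 and 109 in Taf5l-KO and 117, 117 and 116 in Taf6l-KO, without overlap, a change of -0.56 (SE 0.0341, adjusted p = 2.9e-08) and -0.47 (SE 0.0337, adjusted p = 9.87e-08). In cMyc-KO it was at 177, 179 and 159 CPM against 255, 259 and 262 (-0.59, SE 0.056, adjusted p = 0.000209).

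Zmat3, an RNA-binding zinc finger protein that steers splicing, was at 168, 170 and 168 CPM in WT-Taf, 185, 184 and 185 in Taf5l-KO and 206, 203 and 194 in Taf6l-KO. These groups had narrow ranges and no overlap, with rises of 0.13 (adjusted p = 0.00443) and 0.25 (adjusted p = 1.71e-05). Its cMyc-KO libraries were at 138, 135 and 146 CPM against 248, 253 and 243 in WT-Myc, a change of -0.83 (SE 0.0491, adjusted p = 3e-05). Gdf15, a secreted stress cytokine, was at 0.438 to 2.50 CPM in all libraries and fell in cMyc-KO (-1.58, SE 0.29, adjusted p = 0.00464). Cd82, a tetraspanin, had 1 to 15 counts per library, was too low to be tested in the Taf experiment and did not pass in cMyc-KO (-0.25, adjusted p = 0.586).

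Call patterns over the 3 knockouts were counted for the 29 members, and the 14142 genes in all, that were tested in every one of them. By call, 9 members were higher in both Taf knockouts and lower in cMyc-KO, a pattern of 2.93% of those genes: Mdm2, Cdkn1a, Perp, Btg2, Phlda3, Zmat3, Bbc3, Apaf1 and Ercc5. A further 5 were higher in Taf6l-KO, not called in Taf5l-KO and lower in cMyc-KO (1.84% of all genes): Plk2, Tnfrsf10b, Trp53inp1, Ei24 and Polk. Bax, Gtse1, Gadd45a and Epha2 were lower in all 3, as were 3.39% of all genes, and Sesn1 was higher in all 3, as were 2.64%. The wild types of the Taf and Myc knockouts are separate libraries, while the Taf knockouts share theirs.

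Several of the smaller changes lay near the threshold, and their calls were lost when a library was left out, with fold changes that mostly moved little. In Taf5l-KO the calls of Bax, Ppm1d and Ercc5 were each lost on leaving out any of 5 of the 6 libraries (highest adjusted p = 0.123, 0.146 and 0.208), the exceptions being Taf5l-KO replicate 1, 3 and 3. Their fold changes were then -0.12 to -0.094 for Bax, -0.14 to -0.11 for Ppm1d and 0.10 to 0.18 for Ercc5, lowest without Taf5l-KO replicate 1. The Perp call was lost without Taf5l-KO replicate 1 or 3 or WT-Taf replicate 2 or 3 (0.24 to 0.28, adjusted p at most 0.0736). That of Btg2 was lost without either Taf5l-KO replicate 3 or replicate 1 of WT-Taf (0.18 and 0.19, at most 0.0572) and that of Bbc3 without either Taf5l-KO replicate 1 or replicate 2 of WT-Taf (0.27 and 0.31, at most 0.0584). In Taf6l-KO the calls lost were those of Bax without any library but Taf6l-KO replicate 2 (-0.12 to -0.089, at most 0.166), Sesn1 without Taf6l-KO replicate 2 or replicate 2 or 3 of WT-Taf (0.16 to 0.20, at most 0.109) and Bbc3 without either Taf6l-KO replicate 2 or replicate 2 of WT-Taf (0.27 and 0.29, at most 0.0608). In cMyc-KO, Bax lost its call without cMyc-KO replicate 2 or any of the WT-Myc replicates (-0.27 to -0.21, at most 0.103) and Sesn1 without WT-Myc replicate 1 or 3 (0.30 and 0.28, at most 0.0605). Without cMyc-KO replicate 3, the library that stood apart, 24 members fell and 2 rose. With limma on log2(FPKM + 1), where FPKM is fragments per kilobase of transcript, scaled to the library, 4 members rose in Taf5l-KO in place of 12 and 12 rose in Taf6l-KO in place of 19. Over all genes the rising calls also dropped, from 2735 to 1391 and from 3003 to 1375.

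Whether the Taf knockouts differ from each other was tested directly, with Taf6l-KO against Taf5l-KO in the same fit. There 12 of 29 members were higher in Taf6l-KO and none was lower, against 8.55% and 10.1% of all genes. Of all genes called here 45.8% were higher in Taf6l-KO, and 83.1% with library totals, where 18 members were higher and none lower. By library ranges, 16 members lay wholly above and 1 wholly below, against 17.2% and 17.5% of all genes (34.7% in either direction, and 18.7% by calls). The differences were largest for Perp (0.79, SE 0.0741, adjusted p = 1.43e-05), Plk2 (0.53, SE 0.0759, adjusted p = 0.000307), Ccng1 (0.45, SE 0.0343, adjusted p = 2.17e-06) and Btg2 (0.42, SE 0.0563, adjusted p = 0.000165). Ppm1d, Polk, Trp53inp1, Mdm2, Phlda3, Apaf1, Trp53 and Zmat3 differed by 0.12 to 0.35. For Cdkn1a (0.04, SE 0.069), Pmaip1 (0.06, SE 0.103), Bbc3 (-0.02, SE 0.0885) and Bax (0.01, SE 0.0406) the difference was smaller than its error, which does not show equal levels. On chromosome 11, which holds Ccng1, Ppm1d and Trp53, 541 of 1300 genes were higher in Taf6l-KO than in Taf5l-KO and 19 lower, and without these 3 members 9 of 26 were higher. The Polk difference was lost without Taf5l-KO replicate 1 or 3 or Taf6l-KO replicate 2 or 3 (adjusted p at most 0.0798), that of Zmat3 without Taf6l-KO replicate 1 or 2 (at most 0.0531) and that of Apaf1 without Taf6l-KO replicate 3 (0.0574).

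The mean effect of the Taf knockouts was then set against the effect of cMyc-KO, each relative to its own wild type, in a fit of all 15 libraries. Of 30 members tested, 22 were higher in the Taf contrast and none lower, against 16.9% and 18.4% of 16286 genes (35.3% in either direction), with a median difference of 0.74 (all genes -0.02). Perp differed most (2.31, SE 0.0891, adjusted p = 6.73e-11), followed, leaving aside the thinly counted Cd82, by Btg2 (1.39, SE 0.0712, adjusted p = 9.17e-10) and Plk2 (1.32, SE 0.0814, adjusted p = 7.22e-09). Mdm2 differed by 0.85, Cdkn1a by 0.98 and Trp53 by 0.37. Sesn1 (-0.04, SE 0.0888), Gadd45a (0.04, SE 0.0994), Epha2 (0.03, SE 0.0658) and Bax (0.09, SE 0.0853) did not pass. The calls of Cd82 (1.72, SE 0.639) and Gtse1 (0.20, SE 0.0682) were near the threshold: Cd82 lost its call without any single library but Taf6l-KO replicate 2 (at most 0.121), and Gtse1 without any WT-Taf replicate or WT-Myc replicate 2 or 3 (at most 0.0719).

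**Figure D3:**
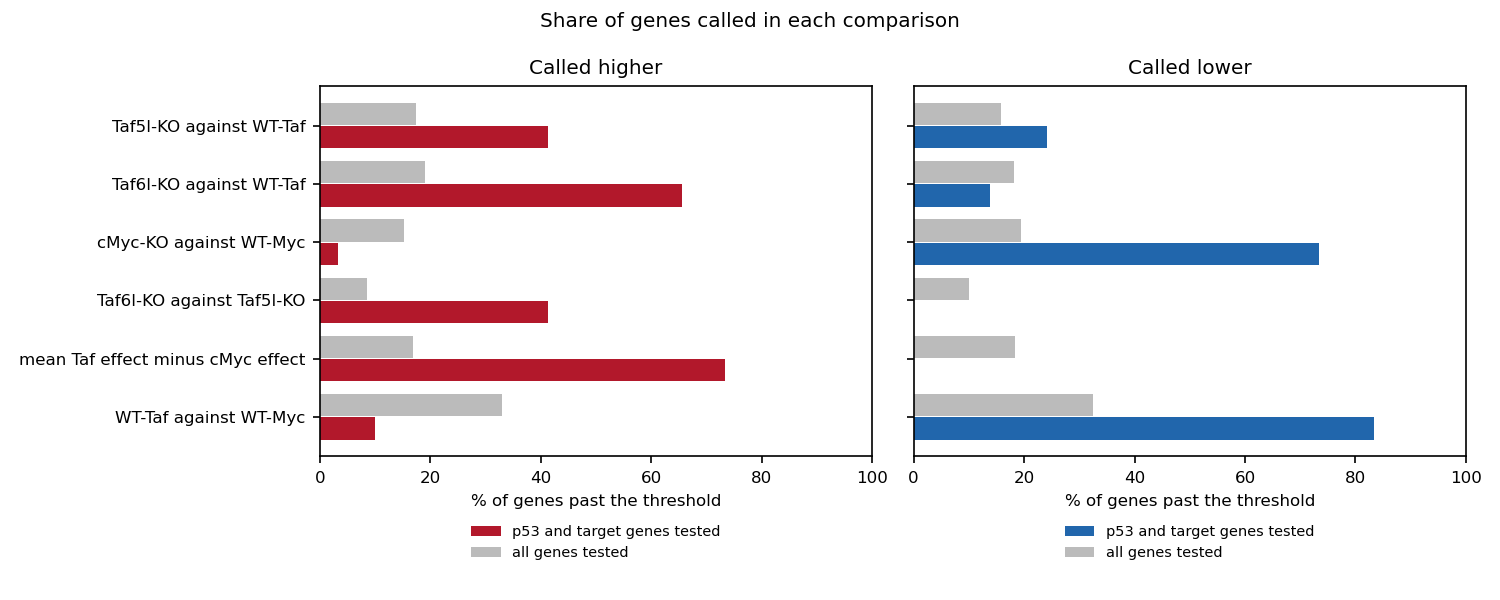
Share of the tested p53 pathway genes (coloured bars) and of all tested genes (grey bars) that were called higher, left, or lower, right, in the 6 comparisons, in percent from 0 to 100. In cMyc-KO 73.3% of members were lower against 19.5% of all genes, and in Taf6l-KO 65.5% were higher against 19.1%.

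The reference groups differ, and so do the members' levels in them. In WT-Taf, 25 of 30 members were lower than in WT-Myc and 3 were higher, against 32.5% and 33% of all genes (65.4% in either direction). Library ranges were here those of the deposited FPKM, where the range counts within an experiment used CPM. By them 24 lay wholly below and 1 wholly above, against 31.8% and 34.1% of all genes (65.9% in either direction). The median was -0.73 (all genes 0.02). Library totals moved the median of all genes by -0.11 and the share of calls that are higher from 50.4% to 40.8%, with the members' counts again 25 and 3. Plk2 differed most (-2.81, SE 0.0629, adjusted p = 3.55e-15), then Perp (-2.53, SE 0.068, adjusted p = 3.75e-14) and Btg2 (-2.08, SE 0.0548, adjusted p = 2.91e-14). After the thinly counted Cd82 (-1.79, adjusted p = 0.0697 with the replicate block) came Cdkn1a (-1.74, SE 0.0682, adjusted p = 4.82e-12), Bbc3 (-1.67), Phlda3 (-1.67), Ccng1 (-1.56), Polk (-1.43) and Mdm2 (-1.31, SE 0.0437, adjusted p = 5.98e-13). All 6 cell cycle members and all 10 tested cell death members were lower in WT-Taf. Sesn1 (0.28), Rrm2b (0.30) and Ddb2 (0.63) were higher there, and Ddb2 lost its call without WT-Myc replicate 2 or 3 (adjusted p at most 0.0687). These wild types come from separate experiments whose protein-coding shares differ as given above, so wild type and experiment cannot be told apart. With protein-coding genes alone in the fit, chosen after seeing the data, the members' counts were 25 lower and 3 higher.

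Levels of different genes are compared per length, in FPKM as deposited (mean ± SD, n = 3). Trp53 had the highest FPKM of the members in every group: 1477 ± 22.2 in WT-Taf, 1308 ± 49.1 in Taf5l-KO, 1491 ± 16.6 in Taf6l-KO, 2464 ± 65.4 in WT-Myc and 1856 ± 185 in cMyc-KO. Mdm2 followed at 313 ± 26.8 in WT-Taf and 813 ± 8.75 in WT-Myc, and in WT-Taf its distance to Bax (296 ± 1.38) was within its SD. The deposited FPKM of both rest on a short effective length, which the values imply to be 269 bases for Trp53 and 265 for Mdm2, against 2640 for Btg2, and dividing by that length raises their FPKM. Cdkn1a stood far lower, at 18.8 ± 0.205 and 60.1 ± 3.21, and Perp at 7.16 ± 0.463 and 41.2 ± 1.64. Plk2 (6.03 ± 0.228) and Btg2 (7.97 ± 0.282) were close to Perp in WT-Taf, with Xpc (6.99 ± 1.11) between Plk2 and Perp, and in WT-Myc Plk2 (41.9 ± 0.41) and Perp differed by less than the SD of Perp.

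**Figure D4:**
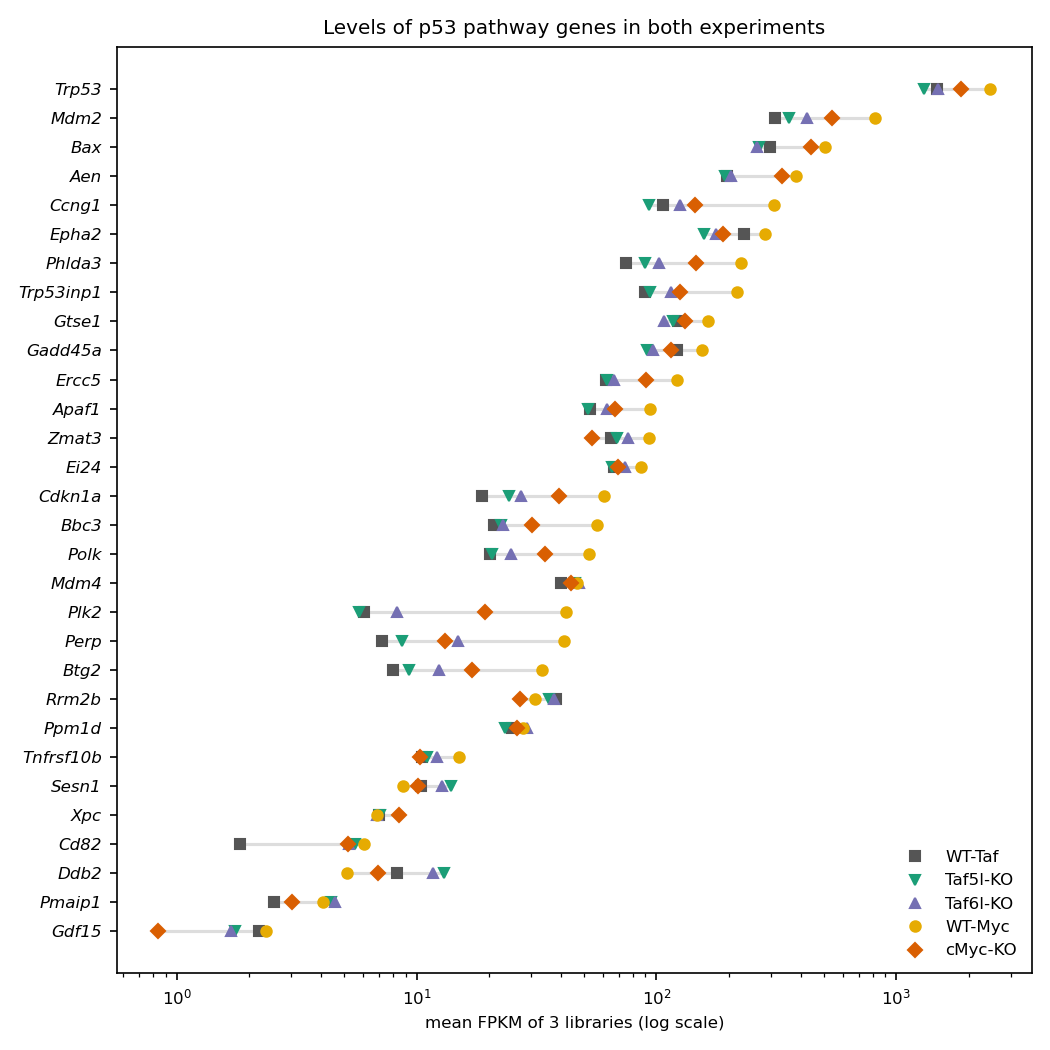
Mean FPKM of the p53 pathway genes by group on a log axis, ordered by the level in WT-Myc, with Fas (0 to 4 counts per library) left out. Trp53 is at the top with 1308 to 2464 FPKM, and for Plk2, Perp and Btg2 the WT-Myc point lies far to the right of the WT-Taf point.

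The 4 lists of neighbouring genes put the members in context. Over all genes tested, 19.1% rose and 18.2% fell in Taf6l-KO, 17.4% and 15.9% in Taf5l-KO, and 15.2% and 19.5% in cMyc-KO. These shares stand beside the counts of each list, and some counts lie near them. Of 27 further p53 targets tested, 11 rose and 2 fell in Taf6l-KO (median 0.18), 8 rose and 5 fell in Taf5l-KO (median 0.06), and 2 of 26 rose and 16 fell in cMyc-KO (median -0.49). Steap3, an iron reductase, rose by 1.36 in Taf5l-KO and 1.27 in Taf6l-KO, from 17.1, 14.9 and 15.7 CPM in WT-Taf to 40.1, 40.8 and 41.3 and to 40.6, 38.3 and 36.5. Tnfrsf19, a TNF receptor family member whose gene is on chromosome 14, rose by 1.52 and 1.42 and changed by -0.76 in cMyc-KO. The part of that chromosome's shift in its cMyc-KO value was not tested. Ak1, an adenylate kinase, rose by 0.47 and 0.69. Steap3 and Ak1 did not pass in cMyc-KO (0.11 and -0.12). Pml, the organiser of nuclear bodies, was lower in all 3 knockouts (-0.62, -0.42 and -0.39). In cMyc-KO, Ephx1, an epoxide hydrolase, changed by -1.41, Zfp365 by -1.14 and Abhd4, on chromosome 14, by -1.13, while Bcl6, a transcriptional repressor, rose by 0.58. Ephx1 and Zfp365 rose by 0.97 and 0.78 in Taf6l-KO and did not pass in Taf5l-KO (0.06 and 0.11), Bcl6 rose by 0.44 in Taf5l-KO and did not pass in Taf6l-KO (0.09), and Abhd4 passed in neither (0.10 and 0.09).

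Of 29 regulators of p53 tested, 7 rose and 8 fell in Taf5l-KO (median 0.05), 8 rose and 10 fell in Taf6l-KO (median 0.04) and 5 rose and 11 fell in cMyc-KO (median -0.10). Cdkn2a, whose ARF product inhibits MDM2, was at 2.64, 3.63 and 4.40 CPM in WT-Taf, 12.3, 12.1 and 12.1 in Taf5l-KO and 9.73, 10.4 and 11.2 in Taf6l-KO. Both knockouts lay far above, by 1.79 and 1.57, and in cMyc-KO it rose by 0.58, from 5.14, 5.27 and 6.31 to 8.60, 9.46 and 7.01 CPM. The counts are per gene and do not separate ARF from the INK4A product of the same gene. Sirt1, a deacetylase of p53, was lower in all 3 knockouts, by a log2 fold change of -0.44 in Taf5l-KO, -0.51 in Taf6l-KO and -0.46 in cMyc-KO. Trp73, the p53 relative p73, rose by 1.12 and 1.51 in the Taf knockouts and changed by -1.13 in cMyc-KO. Hipk2, a kinase that phosphorylates p53, rose by 0.47 and 0.49 in the Taf knockouts and changed by -0.92 in cMyc-KO.

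Of 25 cell cycle genes that p53 is known to lower through p21 and the DREAM repressor, 5 rose and 11 fell in Taf5l-KO (median -0.07), 4 rose and 12 fell in Taf6l-KO (median -0.12), and 8 rose and 2 fell in cMyc-KO (median 0.09). Mybl2, a transcription factor of the cycle, was at 892, 871 and 878 CPM in WT-Taf, 631, 603 and 607 in Taf5l-KO and 526, 545 and 538 in Taf6l-KO, changes of -0.52 and -0.71, and did not pass in cMyc-KO (-0.01, adjusted p = 0.936). Ccnb2, cyclin B2, rose in all 3 knockouts, by 0.19, 0.19 and 0.33. Of 12 tested BCL2 family genes outside the members, 4 rose and 1 fell in Taf5l-KO (median 0.08), 3 rose and 2 fell in Taf6l-KO (median 0.08) and 2 rose and 2 fell in cMyc-KO (median 0.03). Bcl2l11, the BH3-only protein BIM, rose by 0.73 and 0.72 in the Taf knockouts and changed by -0.38 in cMyc-KO. Bmf, another BH3-only protein, rose in all 3 knockouts, by 0.29, 0.20 and 0.62. Bid was lower in the Taf knockouts (-0.29 and -0.17) and did not pass in cMyc-KO (0.06).

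The markers of other cell types were low. Endoderm markers summed to 6.89 to 11.2 CPM per library and mesoderm markers to 7.31 to 9.20 CPM. Trophectoderm markers summed to 25.3 to 26.5 CPM in WT-Taf, 28.3 to 30.9 with Taf5l knocked out, 30.7 to 33.7 with Taf6l knocked out, 26.2 to 29.2 in WT-Myc and 45.6 to 50.6 in cMyc-KO. Neuroectoderm markers summed to 83.2 to 87.2 CPM in WT-Taf, 54.1 to 58.8 with Taf5l knocked out, 65.6 to 70.0 with Taf6l knocked out, 116 to 123 in WT-Myc and 80.0 to 93.5 in cMyc-KO. These sums are mostly 1 gene, Tubb3, a neuronal tubulin, with a mean of 78.3 CPM in WT-Taf. Tubb3 changed by -0.80, -0.50 and -0.44 in Taf5l-KO, Taf6l-KO and cMyc-KO. The other tested neuroectoderm markers went the other way in the Taf knockouts: Pax6, an eye and brain transcription factor, rose by 0.92 and 0.88 and Nes, the neural progenitor filament nestin, by 0.64 and 0.84. In cMyc-KO Pax6 changed by -0.46 and Nes did not pass (-0.24, adjusted p = 0.108). The trophectoderm sums are mostly the keratins Krt8 and Krt18, which rose in all 3 knockouts. Gata3 also rose in Taf6l-KO (0.76) and cMyc-KO (0.89) and did not pass in Taf5l-KO (0.16). Eomes was lower in Taf6l-KO (-0.72) and Hand1 lower in cMyc-KO (-1.33). The shares of all genes given for the 4 lists apply to the markers too. Of the 9 pluripotency markers, 1 rose and 5 fell in Taf5l-KO, 7 fell in Taf6l-KO and 4 rose in cMyc-KO. Their part in the members' changes was not tested.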

How the data were processed

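RNA was sequenced in 15 libraries of 5 groups, made from rRNA-depleted RNA with a directional kit, per the labels' protocols. The Myc experiment's higher protein-coding share leaves its library type uncertain. Salmon 0.8.2, DESeq2 1.14.1 and mm9 are named, without roles, per the submitters' processing notes. The authors deposited estimated counts per gene (100% whole numbers) and FPKM, and their normalized and TPM tables were not used. Samples were grouped by their titles.

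The test of the counts was that of edgeR 4.0.16 in R 4.3.3 (TMM, filterByExpr, glmQLFit, glmQLFTest) and Benjamini-Hochberg adjustment over all tested genes at 0.05. The 9 libraries of the Taf experiment and the 6 of the Myc experiment were fitted separately, and the last 2 comparisons of the report used all 15. SE is the size of the log2 fold change over the root of its F statistic. Total counts (14935631 to 27650813) and 3 libraries a group set the precision. Biological variation (coefficient) was 4.23% for the Taf libraries and 10.2% for the Myc libraries. CPM use TMM-scaled totals. Chromosomes come from GENCODE, matched by ID for 87.4% of genes.

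The members and the lists (p53 regulators, further p53 targets, cell cycle genes lowered through p21 and DREAM, the BCL2 family, markers of 6 cell types) were chosen with earlier results of these data known. Named genes were all 31 members, the targeted genes and, per list and comparison, up to 3 called genes each way by smallest p; 1 such gene is not reported here.

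On simulated counts with 200 changed genes, 77.0%, 85.9% and 96.4% of 1.5-, 2- and 4-fold changes were recovered for Taf5l-KO (15487 genes), 70.5%, 80.5% and 91.9% for Taf6l-KO (15467 genes), and 60.0%, 66.7% and 94.1% for cMyc-KO (14370 genes). Unchanged genes made up 9 of 180, 14 of 176 and 12 of 159 calls. Far fewer genes were changed here than were called in the data (33.2% to 37.2% of genes), so these rates need not hold there. The alternatives tried were library totals or RLE factors as scaling, testing without the filter, DESeq2 1.42.0, the replicate number as a block, limma 3.58.1 on log2(FPKM + 1) for genes with a mean of at least 0.5, all 15 libraries in 1 fit, the groups compared alone, and each library left out. Protein-coding genes alone was added after seeing the data. Figures were drawn with Python 3.11.15.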

Additional observations from a re-analysis of the deposited data

Results flagged for a closer look

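Some members differed between knockouts by a test of the difference itself (edgeR, adjusted p under 0.05). The members' values were not tested for outlying libraries within groups of 3. Between the Taf knockouts, the log2 fold change of Taf6l-KO minus that of Taf5l-KO was 0.16 for Trp53, 0.26 for Mdm2, 0.79 for Perp, 0.42 for Btg2, 0.19 for Phlda3, 0.53 for Plk2, 0.12 for Zmat3, 0.45 for Ccng1, 0.18 for Apaf1, 0.30 for Trp53inp1, 0.32 for Polk and 0.35 for Ppm1d.

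Between the experiments, the mean log2 fold change of the Taf knockouts minus that of cMyc-KO was largest for Perp (2.31), Cd82 (1.72), Btg2 (1.39) and Plk2 (1.32). It was 1.27 for Bbc3, 1.26 for Gdf15, 1.22 for Pmaip1, 1.12 for Ccng1, 1.03 for Phlda3 and 1.02 for Trp53inp1. It was 0.98 for Cdkn1a, 0.98 for Zmat3, 0.85 for Mdm2, 0.84 for Polk, 0.79 for Apaf1, 0.68 for Tnfrsf10b, 0.66 for Ercc5 and 0.54 for Ei24. The smallest were 0.41 for Mdm4, 0.37 for Trp53, 0.29 for Aen and 0.20 for Gtse1. Cd82 had 1 to 15 counts per library.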

How the results depend on the processing

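Of the calls on members, 7 of 19 in Taf5l-KO, 13 of 23 in Taf6l-KO, 19 of 23 in cMyc-KO, 9 of 12 between the Taf knockouts, 20 of 22 between the experiments and 23 of 28 between the wild types held under every alternative run. With limma on FPKM, 4 members rose in Taf5l-KO and 12 in Taf6l-KO, and over all genes 1391 and 1375 rose in place of 2735 and 3003. With all 15 libraries in 1 fit, 4 fell in Taf5l-KO (1947 of all genes in place of 2499). In cMyc-KO the 1 rising member became 2 with library totals, 2 without a filter, 2 with protein-coding genes alone, 2 in the fit of all libraries and 0 with limma. With the replicate block it became 0 (Sesn1, adjusted p = 0.0708), and the members higher in WT-Taf than in WT-Myc went from 3 to 1, as with limma (1).

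Leaving out 1 library gave 9 to 11 rising and 5 to 6 falling members in Taf5l-KO, 17 to 19 and 3 to 4 in Taf6l-KO, 0 to 2 and 21 to 24 in cMyc-KO, 10 to 12 and 0 to 1 between the Taf knockouts, 20 to 22 and 0 to 1 between the experiments, and 2 to 3 and 25 between the wild types. Same-numbered libraries did not deviate together (correlations -0.26 to 0.07), while cMyc-KO replicate 1 and WT-Myc replicate 3 reached 0.22. With 3 libraries a group, this cannot exclude that the samples were paired. The replicate block lowered the calls over all genes in cMyc-KO from 2217 higher and 2847 lower to 1216 and 1923.

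Signs that turned belong to members not called, but for Apaf1 in Taf5l-KO, at -0.023 with limma. In Taf5l-KO limma also gave -0.037 for Ei24, -0.10 for Rrm2b and 0.020 for Xpc. Leaving out 1 library gave -0.11 to 0.0044 for Plk2 (the highest without Taf5l-KO replicate 3), -0.032 to 0.030 for Aen, -0.033 to 0.074 for Rrm2b, -0.11 to 0.12 for Xpc and -0.027 to 0.11 for Polk. Aen was 0.0014 in the fit of protein-coding genes. In Taf6l-KO, Rrm2b was -0.043 with limma and -0.036 to 0.061, and Xpc -0.17 to 0.054, on leaving out 1 library. The causes were not tested. Low counts limit Fas, Cd82 and Gdf15.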
